A study of Mus musculus with 5 samples.

Results

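On the autosomes, 423 stretches of chromatin were called accessible in both libraries from mice carrying a Sox13 transgene and in none of the other 3 libraries of the study. They were found by merging the peaks of all 5 lists wherever peaks shared at least 1 bp. A merged region counted as present in a library when one of that library's peaks lay in it. The 423 regions are 0.276% of 153269 autosomal regions and were chosen by their presence and absence in these same lists, so their absence from the other lists is the rule and not a result. Merging gave 157434 regions in all. The study profiled sorted thymocytes by ATAC-seq, an assay that reads out open DNA by where a transposase can insert adapters, with 1 library per group and 40000 cells sorted for each. The transgenic SOX13hi and SOX13lo libraries came from γδ T thymocytes of TCRbeta KO.Sox13tg+.Sox13 ECFP KI/+ mice, split by high or by low to absent CFP among CD24+ cells. The non-transgenic SOX13hi and SOX13lo libraries were sorted in the same way from TCRbeta KO.Sox13 ECFP KI/+ mice. All 4 γδ libraries therefore carry the TCRbeta knockout and 1 reporter allele of Sox13, and the DP (double-positive) thymocytes were wild type. All mice were labelled C57BL/6. The ages and sexes of the mice, how many were pooled, and the promoter, integration site and copy number of the transgene are not stated in the labels. The CFP fractions report activity of the Sox13 reporter allele, and SOX13 made from the transgene was not measured.

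SOX13, a SOX-family factor with an HMG box as its DNA-binding domain, marks a subset of immature γδ thymocytes and takes part in the programming of IL-17-producing γδ T cells. HMG-box proteins bind the minor groove of DNA and bend it, and the SOX family shares its DNA-binding fold with TCF1 and LEF1, factors that act throughout T cell development. A transgene is also a piece of DNA in its own right: reads from an inserted copy of a mouse sequence map to the original position of that sequence in the reference genome. Peaks were named by position on mm9 and were not assigned to genes, because the gene table used here is of another build, GRCm38. For the same reason the sorted cell types were not checked against marker loci. That table places Sox13 on chromosome 1. In bulk ATAC-seq, a site open in fewer cells and a site less open in each cell cannot be told apart.

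The transgenic pair shared few regions that no other library had. Both transgenic libraries were present in 18492 autosomal regions, and 18069 of these also held a peak of at least 1 other library. The 423 exclusive regions were thus 2.29% of the regions they had in common (exact Clopper-Pearson 95% interval 2.08 to 2.51). Among the 10 pairs of libraries, this share was 1.35% for SOX13hi with transgenic SOX13lo, where 234 regions (0.153% of all autosomal regions) were exclusive. For SOX13lo with transgenic SOX13lo it was 2.07% (1.87 to 2.29), from 380 exclusive regions (0.248%). The interval of this pair overlapped that of the transgenic pair. The non-transgenic pair had 1451 exclusive regions (0.947%), or 5.05% of those it shared. SOX13hi with transgenic SOX13hi had 1898 (1.24%), or 6.57%. The lists differ in length, from 33155 peaks in transgenic SOX13lo and 63932 in transgenic SOX13hi to 113877 in DP, and their read depths are unknown. With the 33155 highest-scoring peaks of every list, the transgenic pair had 550 exclusive regions (0.961% of 57239 autosomal regions), which was 3.45% (3.17 to 3.75) of those it shared. SOX13lo with transgenic SOX13lo then had 3.38% (3.11 to 3.67) and the non-transgenic pair 5.10%. SOX13hi with transgenic SOX13hi again had more, at 6.79%.

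**Figure D1:**
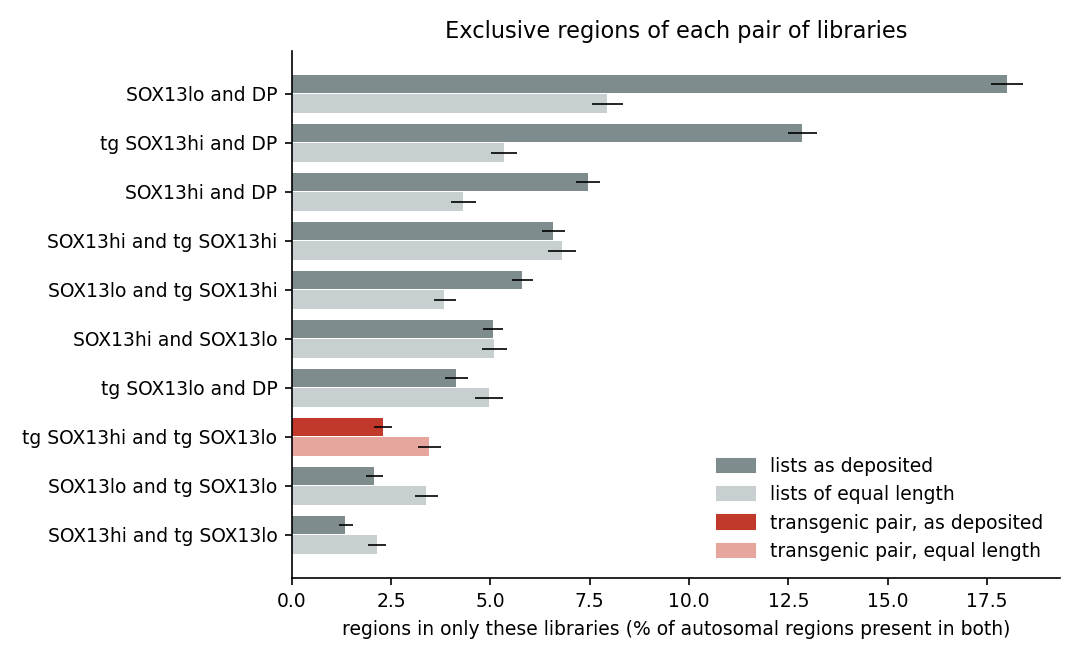
Share of the autosomal regions present in both libraries of a pair that no other library holds, in percent, for the 10 pairs of libraries. Dark bars are the lists as deposited, light bars are lists cut to equal length, red marks the transgenic pair, lines are exact Clopper-Pearson 95% intervals for counting error only, and tg stands for transgenic. The transgenic pair (2.29% and 3.45%) lies beside SOX13lo with transgenic SOX13lo (2.07% and 3.38%) and below the non-transgenic pair (5.05% and 5.10%).

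The same comparison can be read from the shorter list. Transgenic SOX13lo had 3256 autosomal regions that SOX13hi, SOX13lo and DP all lacked, and transgenic SOX13hi held 423 of them, or 13.0% (11.9 to 14.2). Of its 3213 regions that all but SOX13lo lacked, SOX13lo held 11.8% (10.7 to 13.0). The corresponding share for SOX13hi was 7.63% and for DP 21.1%. With lists of equal length, transgenic SOX13hi held 9.75% (8.99 to 10.6) and SOX13lo 9.54% (8.78 to 10.3). The intervals for transgenic SOX13hi and non-transgenic SOX13lo overlapped with the lists as deposited and with lists of equal length.

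Most of the 423 regions were weak and narrow. The authors' score is a whole number per peak whose meaning no header or label gives, so it was ranked within a list and never compared between lists. In the transgenic SOX13hi list the regions had scores from 7, the lowest score of that list, to 137, with a median of 10. Their median rank was the 36.5th percentile, meaning that 36.5% of the peaks in that list scored lower. In the transgenic SOX13lo list the scores ran from 8, again the lowest of the list, to 780, also with a median of 10, at the 30.9th percentile. Regions that both transgenic libraries shared with at least 1 other library ranked far higher, with medians at the 81.8th and 64.2nd percentiles. Regions held by a single transgenic library ranked lower still than the 423, at the 18.96th percentile for transgenic SOX13hi alone and the 20.4th for transgenic SOX13lo alone. Only 10 of the 423 reached the 75th percentile in both lists, and 53 reached the 50th. At the lowest score of their list lay 105 regions (24.8%) in transgenic SOX13hi and 128 (30.3%) in transgenic SOX13lo, against 18.96% and 20.4% of all peaks in those lists. The rank of a region in one list said little about its rank in the other. Across the 423 regions, which are not independent replicates, Spearman's rho between the scores was 0.25, against 0.72 across the 18069 regions shared more widely.

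The regions had a median width of 80 bp (28 to 792), against 309 bp for the more widely shared ones. Their top peak was 28 to 30 bp wide in 232 (54.8%) of the 423 in transgenic SOX13hi and in 264 (62.4%) in transgenic SOX13lo. Of the more widely shared regions 23.1% and 38.9% had such a narrow top peak. Counted over every peak, 46.6% of the transgenic SOX13hi list and 50.2% of the transgenic SOX13lo list were this narrow. The shares for the 423 were thus higher than these, but closer to them than to those of the more widely shared regions. A merged region can hold several peaks of a list, and only its top peak was counted. Nearly all of the 423, 417, were made of 1 peak from each transgenic list. The 2 peaks shared a median of 26 bp (1 to 193). They overlapped by 10 bp or fewer in 68 regions, and in 319 (75.4%) by at least 50% of the narrower peak. The exclusive regions of the 9 other pairs were narrow too, with median widths from 60.5 bp for SOX13hi with transgenic SOX13lo to 111 bp for SOX13lo with DP. Their median ranks ran from the 18.3rd percentile, in SOX13hi for the pair with DP, to the 56.7th, in DP. In the pairs without DP they ran from the 20.4th to the 42.8th. The 1451 regions of the non-transgenic pair had a median width of 83 bp and median ranks at the 27.98th and 37.4th percentiles of their lists.

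**Figure D2:**
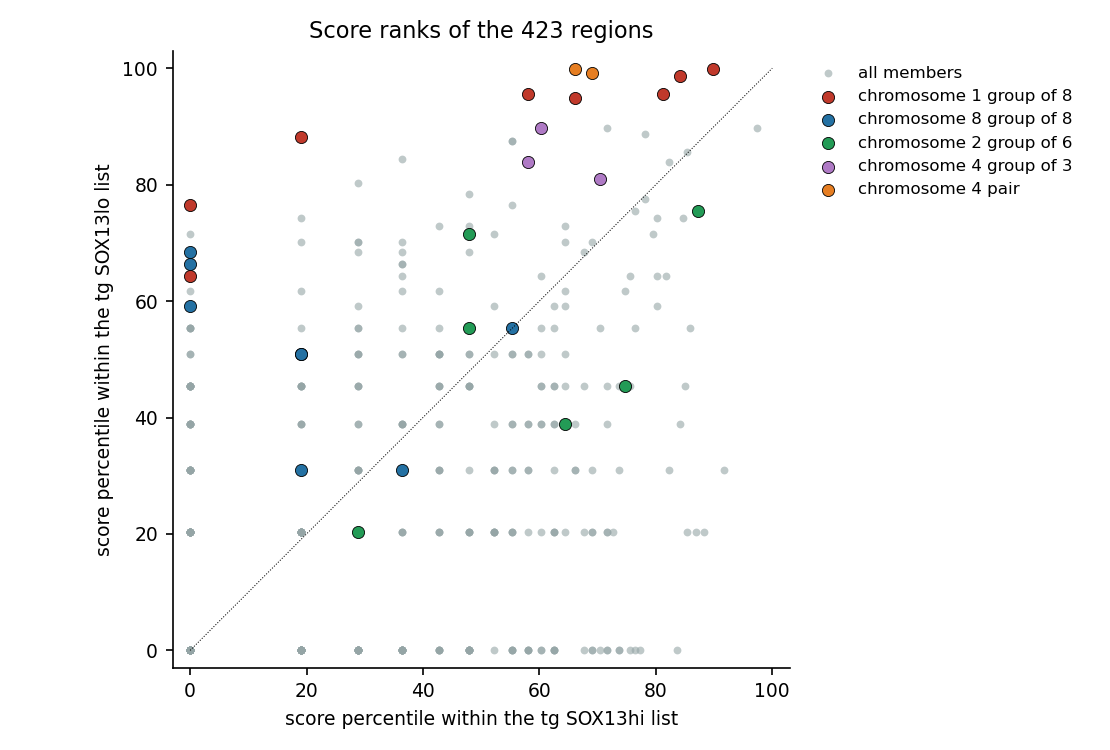
Score percentile of each of the 423 regions within the transgenic SOX13hi list (horizontal) and the transgenic SOX13lo list (vertical), with 1 point per region and the dotted line marking equal ranks. Most regions lie at low or unequal ranks (medians 36.5 and 30.9), while the coloured chromosome 1 group of 8, the chromosome 4 group of 3 and the chromosome 4 pair lie above the line, high in transgenic SOX13lo.

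Many of the 423 regions lay beside, not in, a peak of the lists that lack them. The distance to the nearest peak of SOX13hi, SOX13lo or DP had a median of 76 bp, and 325 regions (76.8%, 72.5 to 80.8) had such a peak within 1 kb. Within 200 bp, 286 (67.6%) had one. Taken singly, 185 regions had a SOX13hi peak within 200 bp, 199 a SOX13lo peak and 210 a DP peak. The share within 1 kb was 78.4% for the exclusive regions of SOX13lo with transgenic SOX13lo, 81.0% for those of the non-transgenic pair, 94.4% for SOX13hi with transgenic SOX13lo and 61.6% for transgenic SOX13lo with DP. The lowest of the other pairs was SOX13hi with transgenic SOX13hi, at 60.2%. Each pair was set against different lists, so the number of peaks that could lie near differed. The lists held 229460 autosomal peaks for the 423, 238610 for the pair at 94.4% and 180912 for that at 61.6%. At the edge of the rule, 63 of the 423 were at most 10 bp from a peak of another list. Of the regions kept out, 51 had a contact of at most 10 bp with another list's peak. Touching such a peak without a shared base were 8 regions. Among them was chr12:115802702-115802739 (scores 7 and 8 in transgenic SOX13hi and SOX13lo), beside a SOX13lo peak, and chr13:96388193-96388242 (scores 9 and 8), beside a SOX13hi peak. Just outside were chr11:9217428-9217530 (scores 7 and 12) and chr2:164736551-164736732 (scores 8 and 8), each kept out by 1 bp shared with a DP peak. These 4 had ranks between the lowest score and the 45.4th percentile in the transgenic lists.

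A stricter reading left fewer regions. With no peak of another list within 1 kb, 98 regions remained (0.0639% of autosomal regions), and 38 had none within 10 kb. The 98 had the same median ranks as the whole set, 36.5 and 30.9, and a median width of 93.5 bp. When neighbouring peaks within 150 bp were joined before the presence of each library was judged, 206 regions were exclusive to the transgenic pair (0.235%), and 141 of the 423 lay in them.

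**Figure D3:**
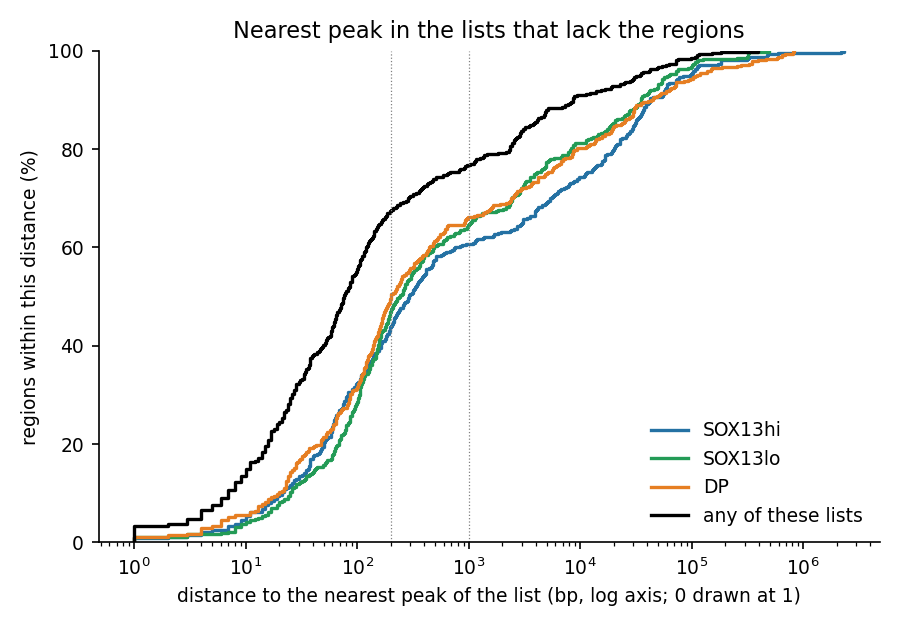
Cumulative share of the 423 regions (percent) with a peak of SOX13hi, SOX13lo, DP or any of these within a given distance in bp, on a log axis with distances of 0 drawn at 1. The dotted lines mark 200 bp and 1000 bp, by which 67.6% and 76.8% of the regions have a peak of any of the 3 lists.

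Along the genome the regions were spread over all 19 autosomes, with 2.76 per 1000 autosomal regions overall (2.50 to 3.04). Chromosome 19 had 4.30 (2.59 to 6.70), chromosome 8 had 4.12 (2.80 to 5.85) and chromosome 15 had 1.57 (0.751 to 2.88). Of the 19 intervals, only that of chromosome 8 left out the overall rate, and this depended on the denominator. As a share of the regions present in both transgenic libraries, which was 2.29% over all autosomes, chromosome 8 had 3.19% (2.18 to 4.50), which includes that value, and chromosome 1 had 3.26% (2.36 to 4.38), which does not. Chromosome 1 held the most regions, 42, at 3.69 per 1000. Groups of neighbouring regions accounted for part of this. Without groups of 3 or more regions, chromosome 1 had 2.37 per 1000 and chromosome 8 had 3.06. The groups were taken out of the counts of these chromosomes only. The 2.76 over all autosomes still holds every group, so it is not a like comparison.

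**Figure D4:**
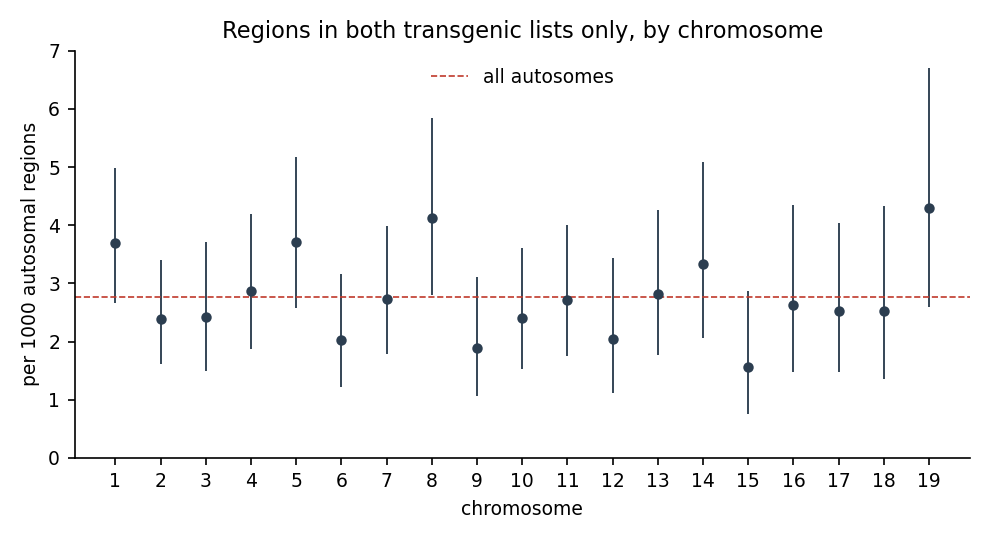
Regions in both transgenic lists only, per 1000 autosomal regions, on each autosome, with exact Clopper-Pearson 95% intervals for counting error only and the rate over all autosomes dashed. Chromosomes 1, 5, 8 and 19 have the highest rates (3.69, 3.71, 4.12 and 4.30) and chromosome 15 the lowest (1.57).

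Of the 423 regions, 65 (15.4%, 12.1 to 19.2) had another within 10 kb. The share was 12.6% (10.9 to 14.4) in the exclusive regions of the non-transgenic pair. It was lower in the other pairs that included transgenic SOX13lo: 3.42% (1.49 to 6.63) with SOX13hi, 4.21% (2.43 to 6.75) with SOX13lo and 6.34% (4.71 to 8.32) with DP. It was higher for SOX13lo with DP, at 31.7% (30.5 to 32.8). In the remaining pairs the interval overlapped that of the transgenic pair, at 17.9% (16.8 to 19.1) for transgenic SOX13hi with DP, 14.3% (12.8 to 16.0) for SOX13hi with transgenic SOX13hi, 11.7% (10.3 to 13.1) for SOX13hi with DP and 11.5% (10.02 to 13.0) for SOX13lo with transgenic SOX13hi. These intervals treat regions as independent, which neighbours in a group are not. The sets ranged from 234 regions (SOX13hi with transgenic SOX13lo) to 6358 (SOX13lo with DP). Both this share and the sizes of groups can rise with the number of regions alone, and no correction was made for that. The 423 formed 9 groups of 3 or more regions with gaps of at most 10 kb, which held 41 regions, and 12 groups of 2. In the non-transgenic pair 31 of 1451 regions lay in groups of 3 or more, and the largest such group had 4 regions, against 8 in the transgenic pair. For SOX13lo with DP it was 666 of 6358 regions, also with a largest group of 8, and for transgenic SOX13hi with DP 152 of 4205, with a largest group of 6. Within the 9 groups, 33 of 41 regions ranked higher in the transgenic SOX13lo list than in the transgenic SOX13hi list. Outside them 141 of 382 did (36.9%), and of the more widely shared regions 19.5% did.

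The highest-ranking group was on chromosome 1 at chr1:135279404-135289718, where 8 regions lay in 10315 bp. The transgenic SOX13hi and SOX13lo lists had 12 peaks each there, SOX13lo had 2, DP had 1 and SOX13hi had none. Each of the 8 regions adds at least 1 peak to both transgenic lists and none to the others by the rule. Such peaks are also in the counts for the groups and pairs below, so those contrasts partly restate the rule. Its first region, chr1:135279404-135280195, was the widest of all 423 at 792 bp and ranked highest of them by the lower of its 2 ranks. It scored 59 in transgenic SOX13hi (89.8th percentile) and 780 in transgenic SOX13lo (above 99.9% of that list), from peaks of up to 329 and 644 bp. The last region, chr1:135289684-135289718, was only 35 bp wide and scored 41 (84.2nd percentile) and 123 (98.6th). Between them, chr1:135285870-135286060 scored 35 and 74, chr1:135281017-135281248 scored 15 and 74, and chr1:135283345-135283476 scored 19 and 70. The 3 others had scores of only 7 or 8 in transgenic SOX13hi, at or near the lowest of that list, and of 25, 17 and 43 in transgenic SOX13lo. All 8 ranked higher in transgenic SOX13lo. In the 20 kb before the group transgenic SOX13hi had 7 peaks and transgenic SOX13lo 1, and in the 20 kb after it they had 4 and 0. SOX13lo had 5 peaks before and 2 after, and DP 6 and 2. SOX13hi had none before and 1 after. Within these 20 kb, transgenic SOX13lo, the shortest list, thus had only 1 peak outside the group. Transgenic SOX13hi, SOX13lo and DP had peaks on either side.

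A pair of regions on chromosome 4, chosen after their values were seen, also ranked near the top of the transgenic SOX13lo list. The region chr4:129237057-129237218 scored 403 in transgenic SOX13lo (99.9th percentile) and 19 in transgenic SOX13hi (66.1st). Its neighbour chr4:129238579-129238680 scored 155 (99.2nd) and 21 (69.0th). Over the 1624 bp from the first to the second, SOX13hi, SOX13lo and DP had no peak, and transgenic SOX13hi had 3 more weak ones (scores 14, 8 and 7). The nearest peak of another list lay 1033 bp before the first region. There, from 1399 bp before the first region, transgenic SOX13lo had a peak with a score of 1365 and transgenic SOX13hi one with 490, above 99.97% and 99.92% of their lists. DP had a peak at that place at the 95.8th percentile of its list, and the strongest peaks of SOX13hi and SOX13lo there were at the 73.9th and 74.5th. Because all 5 libraries held it, that site is not among the 423. All 7 of the 423 regions at or above the 90th percentile of the transgenic SOX13lo list lay at these 2 places, 5 in the chromosome 1 group and 2 in the chromosome 4 pair. In the transgenic SOX13hi list 2 of the 423 regions reached the 90th percentile, and neither was at these places. These 2 places may be parts of the transgene itself, its Sox13 sequence or its promoter, in which case reads from the inserted copies would add to the peaks there. That was not tested, since the places were not assigned to genes and the labels do not give the transgene's sequence or promoter.

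The second group of 8 regions was on chromosome 8, at chr8:19922630-19931713. The transgenic SOX13lo list had 16 peaks in these 9084 bp and transgenic SOX13hi had 10, SOX13lo had 1, and SOX13hi and DP had none. The scores were low, 7 to 14 in transgenic SOX13hi and 10 to 19 in transgenic SOX13lo. Regions of this group at the lowest score of the transgenic SOX13hi list could by definition not rank lower in transgenic SOX13lo. The transgenic SOX13lo rank was the 68.4th percentile at chr8:19925277-19925383 (scores 7 and 19) and the 66.3rd at chr8:19922630-19922740 (scores 7 and 18). All 8 regions were over 1 kb from any peak of the other lists. The regions chr8:19924045-19924138, chr8:19924411-19924502 and chr8:19924777-19924874 started 366 bp apart from one to the next. Their scores were 8, 8 and 7 in transgenic SOX13hi and 13, 13 and 15 in transgenic SOX13lo. The 1 Mb around this group, from 19000001 to 20000000, held 11 of the 423 regions among 90 regions in all, more than any other 1 Mb window. These windows were looked at after the regions' positions were seen. Transgenic SOX13lo was present in 64 of the 90 regions and transgenic SOX13hi in 37. SOX13lo was present in 30, and SOX13hi and DP in 13 each. By the rule, each of the 11 adds to both transgenic counts and to no other. Without the 11, transgenic SOX13hi would be present in fewer of the regions than SOX13lo. The shortest list, transgenic SOX13lo, had the most regions there with or without them. A pair of regions at chr8:19758826-19759139 in the same window scored 11 and 13 in transgenic SOX13hi and 13 and 21 in transgenic SOX13lo, with no peak of another list between them.

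**Figure D5:**
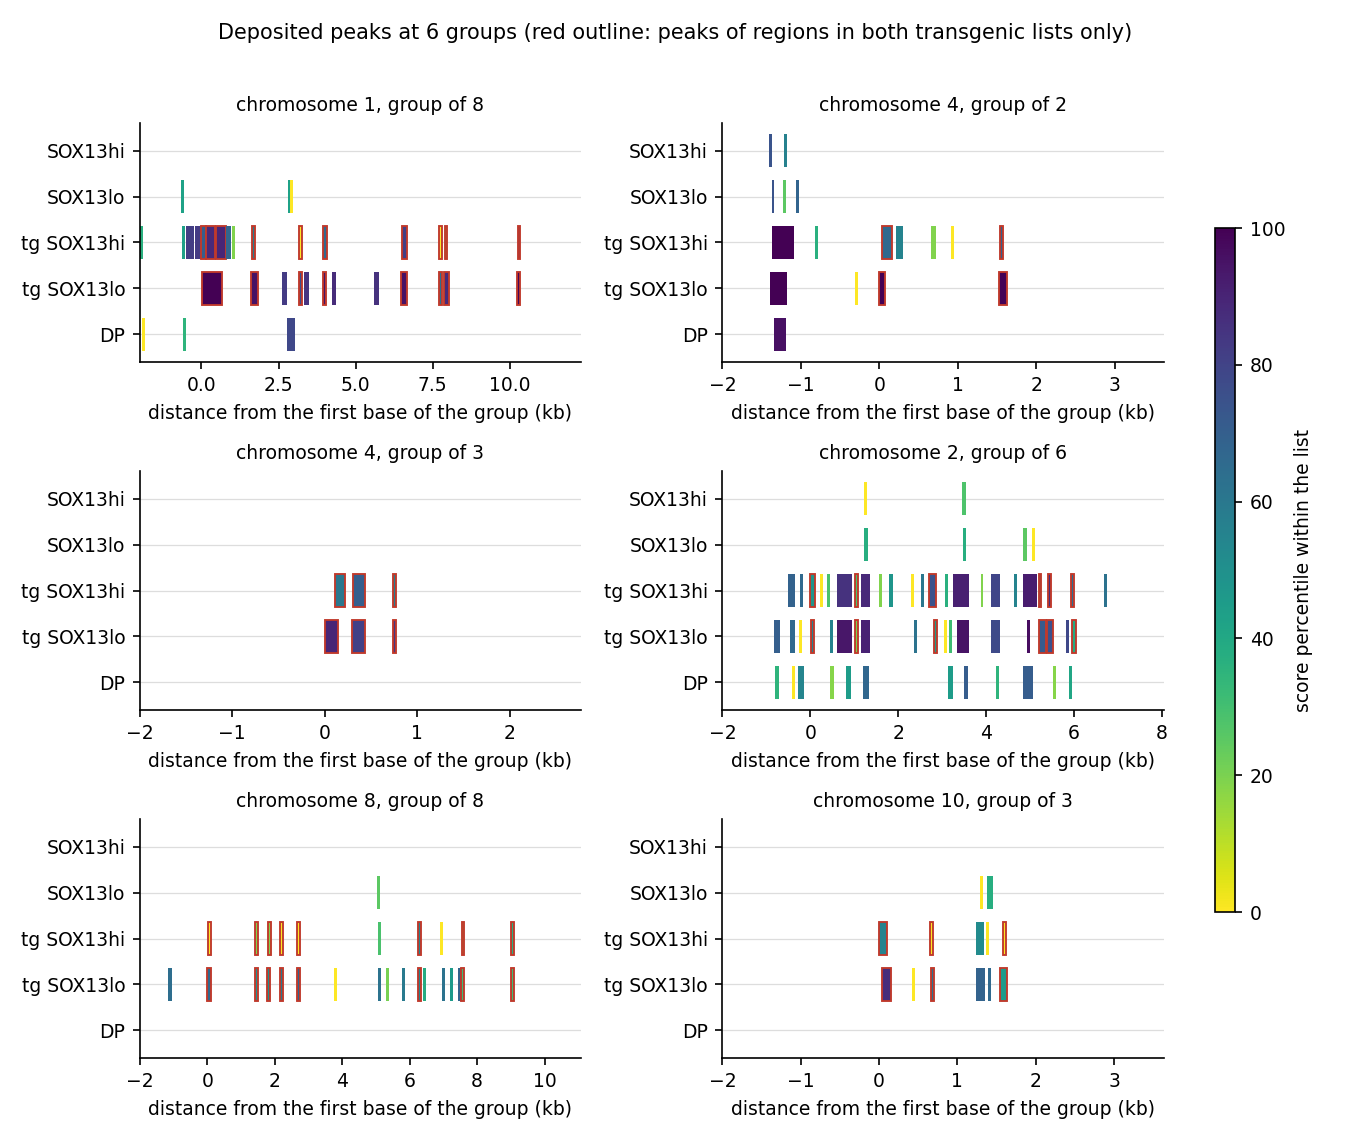
Deposited peaks of the 5 libraries at 6 groups of regions, by distance from the first base of the group in kb, with the colour giving the score percentile within each list, a red outline marking the peaks of the 423 regions, and narrow peaks drawn at a minimum width. Both transgenic lists hold peaks throughout, SOX13hi, SOX13lo and DP hold few or none, and only the chromosome 2 group has many DP peaks (9). The outlined peaks lie in the transgenic lists only by the rule, so this contrast partly restates it.

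A group of 3 regions on chromosome 4, at chr4:118220493-118221264, was the most isolated of the groups. The region chr4:118220493-118220713 scored 16 in transgenic SOX13hi (60.3rd percentile) and 47 in transgenic SOX13lo (89.7th). Its neighbour chr4:118220784-118220927 scored 22 (70.3rd) and 30 (81.0th), and chr4:118221235-118221264 scored 15 (58.0th) and 34 (83.9th). No list had any other peak in the 20 kb on either side. The nearest peak of SOX13hi, SOX13lo or DP lay 71725 bp away from the last region.

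The chromosome 2 group, at chr2:27352135-27358176, was of another kind. Its 6 regions lay among sites that other libraries shared. In these 6042 bp transgenic SOX13hi had 20 peaks and transgenic SOX13lo 16, DP had 9, SOX13lo 4 and SOX13hi 2. The strongest peaks there were at the 92.3rd and 96.7th percentiles in the transgenic lists. They were at the 71.1st in DP, the 37.4th in SOX13lo and the 27.98th in SOX13hi. The 6 regions scored 9 to 49 in transgenic SOX13hi and 9 to 24 in transgenic SOX13lo, with chr2:27357531-27357648 the strongest (49 and 24), and each had a DP, SOX13hi or SOX13lo peak within 276 bp. Of the 6, 2 ranked higher in transgenic SOX13lo than in transgenic SOX13hi, against 8 of 8 in the chromosome 1 group.

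The remaining 5 groups reached at most the 55.3rd percentile in transgenic SOX13hi and the 68.4th to 87.5th in transgenic SOX13lo. On chromosome 1, chr1:87481626-87489523 held 4 regions with scores of 7 to 13 and 8 to 19 in transgenic SOX13hi and SOX13lo. There the transgenic lists had 10 and 8 peaks, SOX13lo had 1, and SOX13hi and DP had none. At chr1:85273152-85283306, 3 regions scored 7 to 10 and 9 to 19. All 3 other lists had peaks there, 2 in SOX13hi, 3 in SOX13lo and 1 in DP, against 4 and 6 in the transgenic lists. With 2 pairs at chr1:85083309-85084313 and chr1:85247355-85256940, the megabase from 85000001 to 86000000 on chromosome 1 held 7 of the 423 among 50 regions. Transgenic SOX13lo was present in 27 of these 50, transgenic SOX13hi in 20, SOX13lo in 12, SOX13hi in 5 and DP in 3. Here too, the 7 add to both transgenic counts and to no other by the rule. On chromosome 10, the 3 regions of chr10:57686716-57688350 scored 7 to 14 and 12 to 41 (up to the 87.5th percentile), where SOX13lo had 2 peaks and SOX13hi and DP none. On chromosome 3, those of chr3:8245778-8246551 scored 8 to 9 and 14 to 29 (up to the 80.2nd), with 1 peak each in SOX13lo and DP. The last group, of 3 regions on chromosome 18, lay in a stretch that all 5 libraries shared, with 8 to 10 peaks in the other lists against 14 and 18 in the transgenic ones. Its regions scored 7, 14 and 8 in transgenic SOX13hi and 15, 25 and 23 in transgenic SOX13lo (up to the 76.6th percentile).

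Outside the groups of 3 or more, 6 regions were among the 10 highest by the lower of their 2 ranks. All 6 lay within 172 bp of a peak of another list. The region chr7:28232728-28232821 scored 137 in transgenic SOX13hi, the highest of all 423 in that list (97.4th percentile), and 47 in transgenic SOX13lo (89.7th). SOX13hi, SOX13lo and DP had peaks 23, 17 and 24 bp from it. The region chr7:66483477-66483696 scored 44 and 37 (85.4th and 85.6th percentiles) and lay 13 bp from a DP peak. It is one of a pair, with the other region 903 bp away. On chromosome 5, chr5:80243256-80243377 scored 37 and 34 and was 116 bp from a DP peak, whereas the nearest SOX13lo peak was 91745 bp away. The region chr5:124199318-124199474 scored 28 and 24, with a SOX13lo peak 8 bp away. On chromosome 9, chr9:115059405-115059751 scored 30 and 44 and lay 172 bp from a DP peak and 12486 bp from a SOX13lo peak. The region chr1:162143365-162143562 scored 30 and 26, with peaks of all 3 other lists within 193 bp. Of the 98 regions over 1 kb from every peak of another list, 2 reached the 75th percentile in both transgenic lists, and both were in the chromosome 1 group of 8. Among single regions this far away, chosen after their values were seen, chr1:187684906-187685152 scored 23 (71.6th percentile) and 47 (89.7th) and was 3950 bp from the nearest such peak. The region chr11:116613509-116613685 scored 21 (69.0th) and 20 (70.1st), with no other-list peak within 30475 bp.

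Of the 12 groups of 2, 5 held no peak of SOX13hi, SOX13lo or DP between their first and last base, the chromosome 4 pair among them. At chr19:25385368-25385633 the scores reached 33 in transgenic SOX13hi (80.2nd percentile) and 17 in transgenic SOX13lo (64.2nd), with 2 peaks in each list and none in the others. The higher-scoring region there ranked higher in transgenic SOX13hi and the other in transgenic SOX13lo, whereas both regions of the chromosome 4 pair ranked higher in transgenic SOX13lo. At chr19:3768632-3768821 the scores were 7 in transgenic SOX13hi and 12 in transgenic SOX13lo for both regions. Other pairs lay among peaks that every library had. Around chr7:66483477-66484670 the strongest peak was above 99% of each of the 5 lists, and the 2 regions scored up to 44 in transgenic SOX13hi and 37 in transgenic SOX13lo. The pair at chr11:3074750-3083511 lay among 21 to 23 peaks of every list. The 38 regions over 10 kb from every peak of the other lists scored 7 to 27 in transgenic SOX13hi, with a median at the 42.8th percentile. In transgenic SOX13lo they scored 8 to 47, with a median at the 30.9th, and their median width was 96 bp.

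The same presence rule on the sex chromosomes, which lie outside the 423, gave 34 regions on X and 11 on Y. The 34 were 8.93 per 1000 of the 3806 regions on X (6.19 to 12.5), against 2.76 on the autosomes. The non-transgenic pair had more, 49 exclusive regions of the same 3806 on X. It also had more on the autosomes, 0.947% of the regions against 0.276% for the transgenic pair. With lists of equal length both pairs had 43 of 1325 regions on X, or 32.5 per 1000. On the autosomes the transgenic pair then had 0.961% of the regions and the non-transgenic pair 1.71%. On Y the non-transgenic pair had none. The transgenic SOX13hi and SOX13lo libraries were present in 259 and 205 of the 352 regions on Y and DP in 284, against 43 for SOX13hi and 59 for SOX13lo. The libraries thus also differed on a chromosome that the autosomal rule leaves out, and the part of this in the results above was not tested.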

How the data were processed

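Accessible chromatin was measured by ATAC-seq in 5 libraries of mouse thymocytes, 1 per group. The authors deposited 1 peak list per library, giving each peak's chromosome, start, end and a whole-number score, with no header. The submitters' processing notes give the build as mm9. No aligner, peak caller or threshold is given in the sources used here, the read depth is unknown, and a missing peak can mean less depth. The SOX13lo list carries the SOX13hi name on every line, and the labels give transgenic SOX13hi and DP the same index sequence. The samples' labels were followed.

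Peaks of all lists sharing at least 1 bp were merged, and autosomal regions with both transgenic lists and no other were kept. A region's score is that of its highest-scoring peak in a list, and its percentile is the share of that list's peaks with a lower score. Distances run from a region's edge to the nearest peak edge. Intervals are exact Clopper-Pearson 95% intervals and cover counting error only. With 1 library per group there was no test and no p-value. Alternatives were lists of equal length, the upper 50% by score, joining within 150 bp, leaving out peaks of at most 30 bp, wider distances, and leaving out each non-transgenic list. The named regions are the 10 with the highest lower-of-both percentile, the groups of 3 or more within 10 kb, and those at the edge of the rule. Others are said to be chosen after their values were seen. The regions and lists were chosen with earlier results of these data known. Genes, motifs and sequences at the regions were not analysed here. The merging was tested on simulated lists of 20000 regions, of which 100% kept their simulated pattern. The simulated regions were spaced too far apart to touch, so this simulation did not test closely spaced peaks. Software was Python 3.11.15 with matplotlib 3.10.9, scipy 1.17.1, pandas 2.3.3 and numpy 2.4.6.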

Additional observations from a re-analysis of the deposited data

Results flagged for a closer look

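Chromosome Y, outside the autosomal rule, held more regions in the transgenic libraries than in the non-transgenic γδ libraries. Transgenic SOX13hi was present in 259 of the 352 regions and transgenic SOX13lo in 205, against 43 for SOX13hi and 59 for SOX13lo. DP was present in 284. With lists of equal length the counts were 175 and 207 of 230 in the transgenic libraries, 22 and 16 in SOX13hi and SOX13lo, and 68 in DP. Of 352 merged regions on Y, 11 were in both transgenic libraries only (31.3 per 1000, 15.7 to 55.2), and 0 were in the non-transgenic pair only. With lists of equal length there were 90 of 230 and again 0. The sex of the mice is not given in the sources used here, and its part in this difference was not tested.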

How the results depend on the processing

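Each group holds 1 library, so no comparison has a replicate check, and no library could be left out as a replicate. No paired analysis was possible because each group has 1 library. Of 41 recomputed values, 17 stayed within 1.5 times the reported count or within the 95% interval of the reported value, and 24 did not. The number of autosomal regions in both transgenic libraries only (423) became 203 with the upper 50% of each list by score (0.282% of regions), 206 with peaks within 150 bp joined, and 237 without peaks of 30 bp or narrower (0.276%). It became 137 with no other-list peak within 200 bp (0.0894%) and 98 with none within 1 kb. It rose to 1022 with DP not used (0.994%), and, in alternatives chosen after seeing the data, to 870 with SOX13lo not used (0.602%) and 826 with SOX13hi not used (0.553%). Leaving out a list that must lack the regions could only keep or raise the count, so the direction of these rises was fixed by the rule. Of the 423 regions, 76 lay in those of the upper 50%, 79 in those without narrow peaks and 168 in those of lists of equal length, so the settings pick largely different regions. The share with a peak of another list within 1 kb (76.8%) was 67.6% at 200 bp, 56.5% with lists of equal length and 64.6% without narrow peaks. The share with another such region within 10 kb (15.4%) was 22.2% at 50 kb and 20.4% with joined peaks. With joined peaks (87787 autosomal regions) the exclusive regions numbered 637 for the non-transgenic pair, 1228 for SOX13hi with transgenic SOX13hi and 38 for SOX13hi with transgenic SOX13lo. They numbered 1354 for SOX13hi with DP, 813 for SOX13lo with transgenic SOX13hi and 188 for SOX13lo with transgenic SOX13lo. With lists of equal length they were 750 (SOX13hi with DP, 1.31% of regions against 1.40% as deposited), 737 (SOX13lo with transgenic SOX13hi, 1.29% against 1.16%), 1480 (SOX13lo with DP, 2.59% against 4.15%) and 958 (transgenic SOX13hi with DP, 1.67% against 2.74%). The total fell from 153269 regions to 87787 with joined peaks and to 57239 with lists of equal length. In both settings a lower count need therefore not be a lower share. The number on chromosome Y (11) was 90 with lists of equal length. The cause was not tested for any of these.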
